A study of Sus scrofa with 17 samples.

Results

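The genes described here are the feedback inhibitors, cytokine ligands and vascular adhesion receptors around the transcription factor NF-kB in the pressure-overloaded pig heart. They were listed by name for their known roles, with earlier results of these data known. Their rows were looked up by symbol in the gene count table. Of 10 listed genes, 8 had a row, and all 8 passed the filter on low counts: the ligand TNF, the subunit gene NFKB1, the inhibitor genes NFKBIA, TNFAIP3 and SOCS3, and the adhesion genes ICAM1, VCAM1 and SELP. The table held 35670 genes, of which 15884 were tested. IL1B and SELE were not found under those symbols and are not analysed here. A row named IL1B2, for which the pig RefSeq table lists IL1B as a synonym, held 2 counts in all, from 1 library.

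RNA was sequenced from right ventricular muscle of 17 pigs (Sus scrofa), 1 library per animal, and all of them had right ventricular pressure overload. Umbilical cord blood mononuclear cells had been injected into the heart muscle in repeated doses in 7 pigs (multidose) and once in 5 pigs (single dose), and 5 pigs had received vehicle (vehicle control). Breed, age, cell dose, the number of injections and the time of harvest were not given in the sources used here, and hearts without pressure overload were not analysed here. The submitters recorded weight, sex and batch, but no label gives them for a library.

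NF-kB dimers are held in the cytoplasm by IkB proteins until receptors for TNF, interleukin-1 or microbial products activate the kinases that have IkB degraded. The freed dimers switch on their own brakes, among them NFKBIA and TNFAIP3, so the transcripts of these inhibitors are commonly read as a record of pathway activity. In vessels NF-kB also drives ICAM1, VCAM1 and the selectins, with which endothelium catches leukocytes from the blood. SOCS3 is the corresponding brake on the JAK and STAT3 pathway downstream of interleukin-6 type cytokines.

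Libraries held 21754800 to 61144663 counts. Multidose 1 to 4 and single dose 1 carry library names that start with M1, and the other 12 names start with M8 or M9. What the names stand for is not stated. The M1 libraries had 21754800 to 40969168 counts and the M8 or M9 libraries 40621934 to 61144663, and no vehicle control had an M1 name. Mitochondrial genes took 12.4% to 23.1% of counts. All 8 cardiomyocyte markers were detected, with a summed level of 38346 to 71572 CPM (read counts scaled to a common library total, with edgeR's TMM factors). No gene lengths were used, so levels are compared between libraries and not between genes. The libraries are bulk tissue, in which fewer cells of a type and less RNA per cell cannot be told apart.

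In both treated groups the inhibitor genes and NFKB1 tended to lower levels than in vehicle controls, but no listed gene passed the test after adjustment over all genes. With repeated doses, TNFAIP3 stood at 0.659 times the control level, SOCS3 at 0.629 times, NFKBIA at 0.736 times and NFKB1 at 0.807 times. On the log2 scale these were -0.60, -0.67, -0.44 and -0.31. Among the M8 or M9 libraries alone they were -0.39, -0.31, -0.50 and -0.19, so all but NFKBIA shrank. After a single dose the 4 genes in that order were at 0.757, 0.723, 0.719 and 0.802 times the control level over all libraries, and ICAM1 stood at 0.669 times. Over all libraries VCAM1 and SELP were close to or above the control level in both treated groups, although SELP with repeated doses was at -0.75 on the log2 scale among the M8 or M9 libraries, the name class of every control. TNF stood at 0.507 times the control level with repeated doses and 1.14 times after a single dose. Both comparisons use the same 5 controls, so their similarity is not independent evidence.

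**Figure D1:**
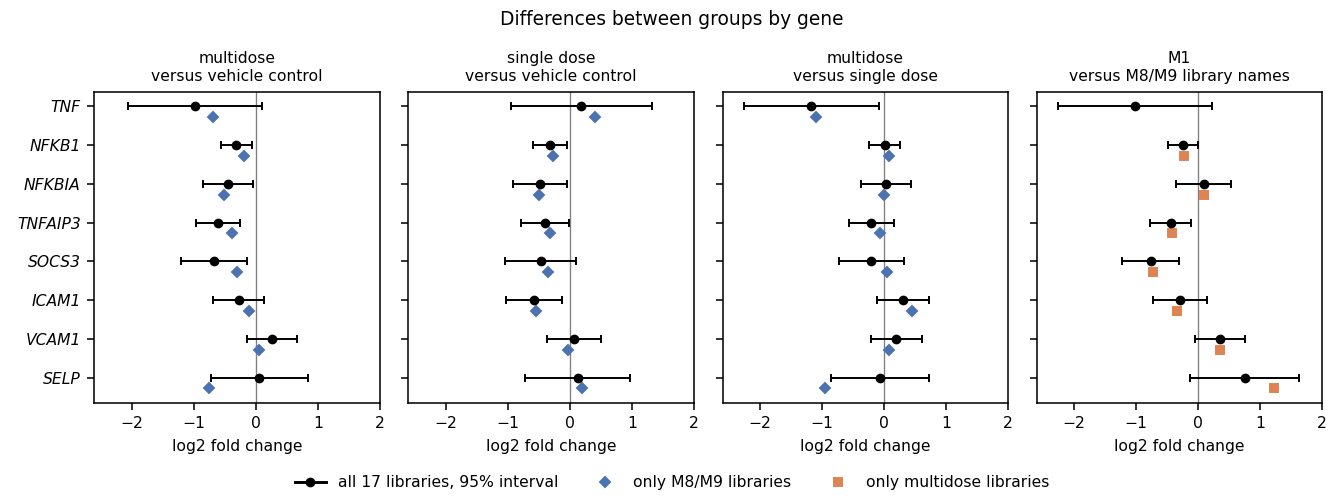
Log2 fold change of each of the 8 genes in the 3 dosing comparisons and between M1 and M8 or M9 libraries, with bars for the 95% interval from edgeR. With repeated doses the intervals of NFKB1, NFKBIA, TNFAIP3 and SOCS3 lie below 0 before adjustment over all genes. SOCS3 between library names is the single difference that passed after it, in a comparison where 14% of all genes passed.

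For multidose against vehicle control, 0 of 8 genes passed at an adjusted p of 0.05 in edgeR's quasi-likelihood test, as did 0% of all tested genes. DESeq2 and limma-voom also passed 0 of the 8. Before adjustment, 4 of 8 had a p under 0.05, all lower with repeated doses, against 5.83% of all tested genes lower and 12.6% in either direction. Of the 8 log2 fold changes 6 were negative, against 50.7% of all genes. The median was -0.38, against -0.0051 over all genes. In 1 of 8 genes, TNFAIP3, the groups did not overlap. That pattern was found in 0.126% of all genes in the lower and 0.145% in the higher direction. The 8 genes were chosen with earlier results of these data known, so these shares, and those in the comparisons below, are descriptions.

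For single dose against vehicle control, again 0 of 8 genes passed by edgeR, DESeq2 or limma-voom, against 0% of all genes by edgeR. NFKB1, NFKBIA, TNFAIP3 and ICAM1 had an unadjusted p under 0.05, all lower, against 2.84% of all genes lower and 5.26% in either direction. Of the 8 log2 fold changes 5 were negative, against 49.6% of all genes, with a median of -0.36 against 0.0025 over all genes. The groups overlapped for all 8, while 0.453% of all genes lay wholly lower and 0.422% wholly higher.

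Between the 2 treated groups no listed gene passed either. By edgeR, DESeq2 and limma-voom 0 of 8 passed, against 0% of all genes by edgeR. Before adjustment 1 of 8, TNF, had a p under 0.05, on the lower side with repeated doses, against 1.22% of all genes lower and 2.11% in either direction. The signs were split, with 4 of 8 negative against 49.5% of all genes. No listed gene separated the groups, as 0.0315% of all genes did in the lower and 0.0378% in the higher direction.

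**Figure D2:**
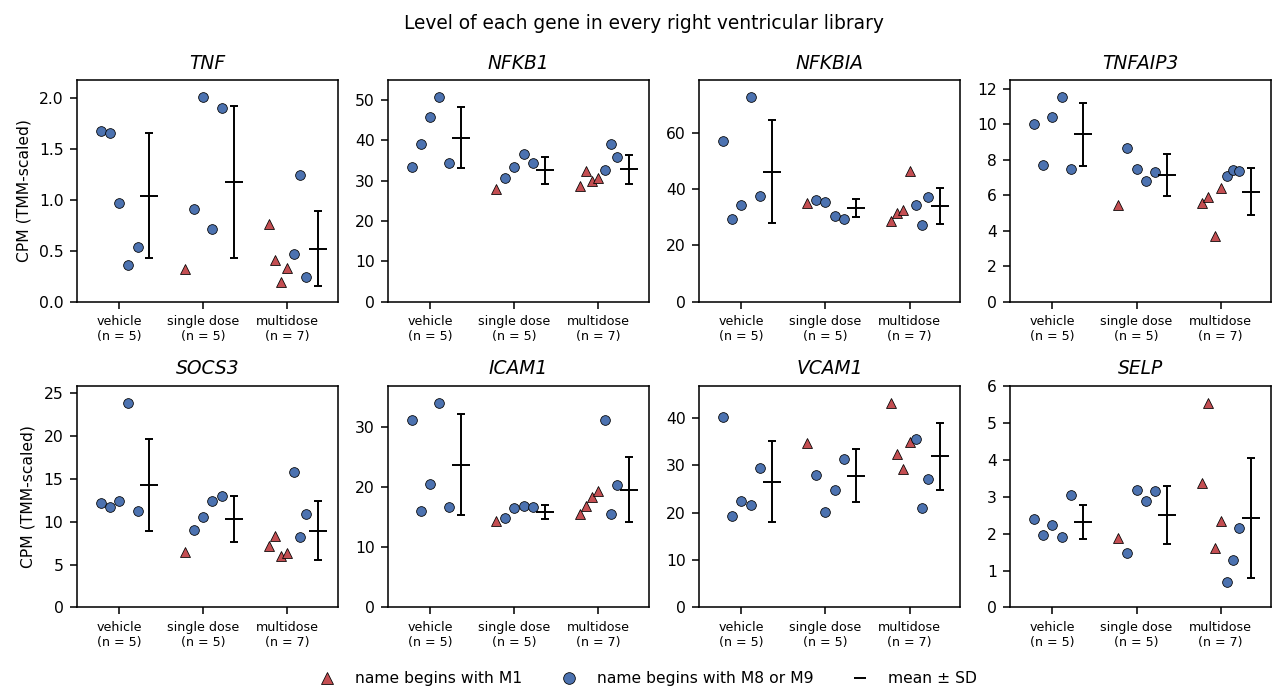
CPM of each of the 8 genes in every library, by dosing group, with M1 libraries as triangles and others as circles, and the group mean with its SD as a bar. TNFAIP3 is the gene whose multidose libraries, at 3.68 to 7.39 CPM, all lie below the lowest control at 7.49, while SOCS3, NFKBIA and ICAM1 each have a control well above the others.

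TNF, the cytokine that starts NF-kB signalling through its receptors, was rare in this tissue (ENSSSCG00000060860, chromosome 7, 23699635 to 23702393 in the RefSeq annotation of Sscrofa11.1). It had 4 to 103 counts per library. Vehicle controls 1 to 5 had 1.67, 1.66, 0.967, 0.356 and 0.538 CPM, and single dose 1 to 5 had 0.322, 0.909, 2.01, 0.714 and 1.89 CPM. The multidose libraries ran from 0.194 through a median of 0.403 to 1.24 CPM. All 3 groups overlapped, with low libraries in each. The log2 fold change with repeated doses was -0.98 against control (SE 0.51, adjusted p = 0.428, edgeR) and -1.17 against a single dose (SE 0.51, unadjusted p = 0.0357, adjusted p = 0.99998). After a single dose it was 0.19 (SE 0.54, adjusted p = 0.965), and turned to -0.09 without single dose 3, -0.06 without single dose 5 and -0.03 without vehicle control 4. Within the M8 or M9 libraries the values were -0.68, -1.09 and 0.41. At these counts the intervals were wide, from -2.06 to 0.10 for multidose against control.

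NFKB1 encodes the p105 precursor, which is processed to the DNA-binding p50 subunit and itself restrains NF-kB through its IkB-like end (ENSSSCG00000030957, chromosome 8, 118391010 to 118478927). The controls had 33.3, 39.0, 45.9, 50.8 and 34.3 CPM. The single dose libraries had 28.02, 30.7, 33.3, 36.7 and 34.3 CPM, and the multidose libraries 28.7 to 39.2 with a median of 32.5. Controls 3 and 4 were higher than every treated library, while the other controls lay among the treated ones. In 5 of 7 multidose libraries NFKB1 was below the lowest control. Against control, the log2 fold change was -0.31 with repeated doses (SE 0.12, unadjusted p = 0.0165, adjusted p = 0.370, edgeR) and -0.32 after a single dose (SE 0.13, adjusted p = 0.891). Among M8 or M9 libraries alone it was -0.19 and -0.28. The treated groups were close, with a difference of 0.01 and an interval from -0.24 to 0.26.

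NFKBIA encodes IkB alpha, the inhibitor that NF-kB resynthesises first (ENSSSCG00000001952, chromosome 7, 64508119 to 64510754). The controls had 57.3, 29.3, 34.2, 72.9 and 37.4 CPM, so that controls 1 and 4 stood far above the other 3. The single dose libraries had 35.1, 36.2, 35.3, 30.3 and 29.2 CPM, and the multidose libraries ran from 27.1 through 32.7 to 46.5. Apart from multidose 4, at 46.5 CPM, the treated libraries had 27.1 to 37.3 CPM, around the levels of controls 2, 3 and 5. In log2 terms NFKBIA was at -0.44 with repeated doses (SE 0.19, unadjusted p = 0.0326, adjusted p = 0.385, edgeR) and -0.48 after a single dose (SE 0.21, adjusted p = 0.891). Without vehicle control 4 these shrank to -0.21 and -0.25. Within the M8 or M9 libraries both were -0.50.

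TNFAIP3 encodes A20, a ubiquitin-editing enzyme that shuts down signalling from the TNF receptor (ENSSSCG00000004154, chromosome 1, 26474158 to 26489771). It was the gene of the 8 with the clearest separation. The controls had 10.01, 7.69, 10.4, 11.5 and 7.49 CPM, a mean of 9.43 ± 1.77 (SD, n = 5). The multidose libraries had 3.68 to 7.39 CPM with a median of 6.43, a mean of 6.19 ± 1.31 (SD, n = 7). All 7 multidose libraries lay below all 5 controls, although the highest of them, at 7.39 CPM, came close to the lowest control. The single dose libraries had 5.43, 8.66, 7.46, 6.81 and 7.30 CPM, and 4 of the 5 lay below every control.

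The log2 fold change of TNFAIP3 with repeated doses was -0.60 (SE 0.17, interval -0.96 to -0.25). Its unadjusted p of 0.00218 ranked 65 among 15884 genes, and the adjusted p was 0.366 (edgeR). Leaving out each library in turn kept the value between -0.68 and -0.51. After a single dose it was -0.40 (SE 0.18, adjusted p = 0.891). The 3 multidose libraries with M8 or M9 names had 7.07, 7.39 and 7.34 CPM, and the 4 with M1 names 5.55, 5.91, 3.68 and 6.43. Within the M8 or M9 libraries the difference from control was -0.39 for repeated doses and -0.33 for a single dose.

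SOCS3, the inhibitor of JAK kinases bound to the gp130 receptor, varied 3.97-fold over the libraries (ENSSSCG00000036956, chromosome 12, 3643832 to 3647015). The controls had 12.1, 11.7, 12.4, 23.9 and 11.3 CPM, and control 4 stood well above the others. The single dose libraries had 6.49, 8.99, 10.6, 12.4 and 13.0 CPM, and the multidose libraries 6.01 to 15.8 with a median of 8.24. In 6 of 7 multidose libraries SOCS3 was below every control, and multidose 5, at 15.8 CPM, was above all controls but control 4. Its log2 fold change was -0.67 with repeated doses (SE 0.25, unadjusted p = 0.0155, adjusted p = 0.370, edgeR) and -0.47 after a single dose (SE 0.27, adjusted p = 0.891). Without vehicle control 4 it was -0.40 and -0.20. Within the M8 or M9 libraries it was -0.31 and -0.35.

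ICAM1, the endothelial receptor that leukocyte beta-2 integrins grip, had 3 libraries apart from the rest (ENSSSCG00000013655, chromosome 2, 69097136 to 69107722). Vehicle controls 1 and 4 and multidose 5 had 31.2, 34.0 and 31.1 CPM, and the other 14 libraries had 14.3 to 20.5. The remaining controls had 16.1, 20.5 and 16.6 CPM. The single dose libraries were tightly grouped, at 14.3, 14.9, 16.5, 16.9 and 16.7 CPM, and the median of the multidose libraries was 18.3. For ICAM1 the log2 fold change was -0.58 after a single dose (SE 0.22, unadjusted p = 0.0150, adjusted p = 0.891, edgeR) and -0.27 with repeated doses (SE 0.20, adjusted p = 0.549). Without vehicle control 4 the values were -0.41 and -0.10, and without multidose 5 the second was -0.42. Within the M8 or M9 libraries they were -0.55 and -0.10.

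VCAM1, the adhesion receptor for the integrin VLA-4, followed another order than ICAM1 (ENSSSCG00000006862, chromosome 4, 117496914 to 117511211). The controls had 40.2, 19.2, 22.4, 21.6 and 29.4 CPM. The single dose libraries had 34.6, 27.997, 20.2, 24.8 and 31.4 CPM, and the multidose libraries ran from 20.9 through 32.4 to 43.2. The groups overlapped throughout, with vehicle control 1 second only to multidose 1. VCAM1 had a log2 fold change of 0.26 with repeated doses (SE 0.19, adjusted p = 0.559, edgeR) and 0.07 after a single dose (SE 0.21, adjusted p = 0.970). Without vehicle control 1 the first was 0.46 and the second 0.26. The second turned to -0.04 without vehicle control 2 and -0.02 without single dose 1, and within the M8 or M9 libraries they were 0.05 and -0.03.

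SELP encodes P-selectin, which endothelial cells and platelets store in granules and bring to the surface on stimulation (ENSSSCG00000006288, chromosome 4, 81376804 to 81401240). The controls had 2.41, 1.96, 2.23, 1.91 and 3.04 CPM, and the single dose libraries 1.89, 1.47, 3.19, 2.88 and 3.14. The multidose libraries held both the lowest value, 0.685 CPM in multidose 5, and the highest, 5.56 in multidose 2, with a median of 2.16. Thus the multidose spread enclosed every library of the other groups. The log2 fold change was 0.06 with repeated doses (SE 0.37, adjusted p = 0.956, edgeR) and 0.12 after a single dose (SE 0.40, adjusted p = 0.970). Without multidose 2 the first turned to -0.28 and without multidose 1 to -0.03, and within the M8 or M9 libraries it was -0.75. Platelet markers were low, with 5 of 6 in the table and a summed level of 1.75 to 4.86 CPM.

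**Figure D3:**
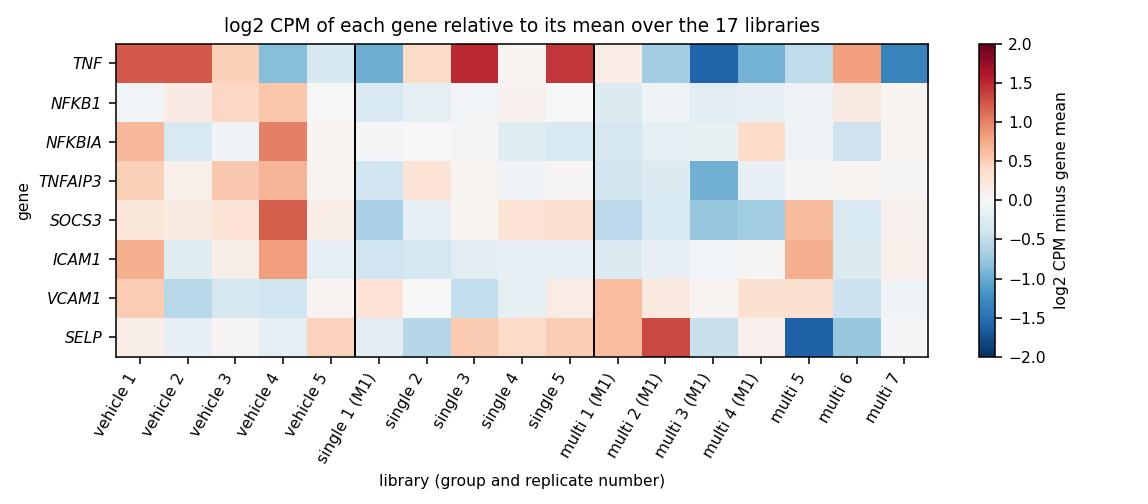
Log2 CPM of each gene in each library relative to the mean of that gene over the 17 libraries, with libraries in columns by group. Vehicle controls 1 and 4 are above the mean in NFKBIA, TNFAIP3, SOCS3 and ICAM1 together, and multidose 5 is above it in SOCS3 and ICAM1 and lowest of all in SELP.

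Vehicle controls 1 and 4 were also the highest libraries for leukocyte markers. Of 12 leukocyte markers 11 were in the table, none at 0 in all libraries, and their summed level was 283 CPM in control 1 and 381 in control 4. It was 147 to 185 CPM in the other controls, 157 to 232 after a single dose and 138 to 238 with repeated doses. The sum is weighted to abundant markers, and CD163 alone reached 207 CPM in its highest library. On the mean log2 CPM of the markers, controls 1 and 4 were at 3.07 and 3.02, close to single dose 5 at 2.98. The same 2 controls were the lowest libraries on the mean log2 CPM of the cardiomyocyte markers. Both were at 11.41, and the next, single dose 5, was at 11.73. Summed cardiomyocyte levels were 38346 CPM in control 1, the lowest of all, and 53406 in control 4. With repeated doses that sum was 50935 to 71572 CPM. The 12 endothelial markers summed to 1802 CPM in control 1 and 1303 in control 4. Their range was 1087 to 1802 CPM over all controls, 1144 to 1298 after a single dose and 1024 to 1511 with repeated doses. Of 10 genes known as glucocorticoid targets 8 were in the table. These summed to 1982 CPM in control 4, 1263 in control 5, 1008 in control 1, 693 in control 2 and 654 in control 3. In treated libraries they summed to 494 to 1021 CPM, a range that holds controls 1, 2 and 3. Immediate early genes summed to 597 CPM in control 4 and 590 in single dose 1, against 241 to 384 in the other 15 libraries. The part of these shifts in the levels of NFKBIA, SOCS3 and ICAM1 was not tested.

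The rest of the pathway was read from lists of known components. In multidose against control, some lists from outside the pathway had lower medians than any pathway list. Among them, leukocyte markers had a median of -0.35 (7 of 10 negative) and mural markers of -0.33 (6 of 6). The median of cardiomyocyte markers was 0.32, with 1 of 8 negative. The glucocorticoid targets were negative in 8 of 8, with a median of -0.57 and 5 below an unadjusted p of 0.05 in edgeR, and the immediate early genes in 13 of 14, with a median of -0.64 and 7 below it. After a single dose the glucocorticoid targets were again negative in 8 of 8, with a median of -0.55, and the immediate early genes in 8 of 14, with a median of -0.12. In multidose against control, no gene of any list passed by edgeR, and the counts at an unadjusted p under 0.05 follow. All 4 of the other subunit genes had negative values, with a median of -0.23, and REL, encoding c-Rel, had the largest difference at -0.53 (SE 0.19, adjusted p = 0.367). Of 11 other inhibitors tested, 9 were negative, with a median of -0.26. Below an unadjusted p of 0.05 were ZFP36, which destabilises cytokine mRNAs, at -0.80 (SE 0.24, adjusted p = 0.366), NFKBIZ at -0.70 and NFKBID at -0.41.

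Upstream receptors and kinases had 18 of 22 negative values and a median of -0.15. TNFRSF1B, the second TNF receptor, was at -0.47 (SE 0.15, adjusted p = 0.366, edgeR), RIPK1 at -0.33 and TRAF3 at -0.54. Among 17 target genes outside adhesion 12 were negative, with 2 below an unadjusted p of 0.05, NFKBIZ again and PTX3 at -1.14. On the gp130, JAK and STAT3 list 10 of 15 were negative. PIM1, a kinase gene switched on by STAT3, was at -0.91 (SE 0.23, adjusted p = 0.366) and STAT3 at -0.41 (SE 0.17, adjusted p = 0.377), beside the -0.67 of SOCS3. The leukocyte adhesion list had 10 of 17 negative. Its lowest p values belonged to the leukocyte integrin genes ITGB2 at -0.63, ITGAL at -0.88 and ITGA4 at -0.52, which encode the partners of ICAM1 and VCAM1.

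In single dose against control no gene of these lists passed either. The subunit genes were negative in 4 of 4, with a median of -0.14. Upstream receptors and kinases were negative in 16 of 22, where TNFRSF1B stood at -0.49 (SE 0.17, adjusted p = 0.891, edgeR). On the gp130, JAK and STAT3 list PIM1 was at -0.73 and OSMR, the oncostatin M receptor, at -0.66. Between the treated groups NFKBID was the 1 gene of the pathway and adhesion lists with an unadjusted p under 0.05 in edgeR, at -0.34 (SE 0.15, adjusted p = 0.99998). Outside them, 4 of 14 immediate early genes and 1 of 10 leukocyte markers were below it, all lower with repeated doses.

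More genes passed by library name than by dosing. Within dosing groups SOCS3 was lower in M1 than in M8 or M9 libraries, at 0.589 times. It was the 1 gene of the 8 that passed in edgeR's test, against 14% of all genes and 8.06% in the lower direction. A count of 1 in 8 is near the 14% of all genes. Before adjustment, 3 of 8 were lower at a p under 0.05, against 16.4% of all genes lower and 29.9% in either direction. Of the 8 values 5 were negative, against 51.4% of all genes, and the median was -0.27 against -0.014. TNFAIP3 was the 1 gene whose name classes did not overlap, as 3.01% of all genes did in the lower and 2.73% in the higher direction.

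SOCS3 had 6.01 to 8.29 CPM in the 5 M1 libraries, with a median of 6.49, and 8.24 to 23.9 in the other 12, with a median of 11.9. Only multidose 6, at 8.24 CPM, reached into the M1 range. The log2 fold change was -0.76 (SE 0.22, adjusted p = 0.0279, edgeR). It no longer passed without multidose 1, 3, 4 or 5 or single dose 1, with adjusted p of 0.0504, 0.0614, 0.0526, 0.107 and 0.102, nor in the multidose libraries alone (-0.73, adjusted p = 0.0862). Most M1 libraries were also shallower than the others. The deepest M1 library, multidose 4 with 40969168 counts, had 6.28 CPM, and single dose 3, an M8 or M9 library with 40621934 counts, had 10.6. These libraries also differ in dosing group. The multidose libraries with M8 or M9 names were multidose 5, 6 and 7, with 42404702, 43790485 and 48330971 counts. They had 15.8, 8.24 and 10.9 CPM. The part of depth was not tested. Since 4 of the 5 M1 libraries are multidose, name and dosing group can be told apart only in part.

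TNFAIP3 had 3.68 to 6.43 CPM in M1 and 6.81 to 11.5 in M8 or M9 libraries, which is -0.44 on the log2 scale (SE 0.16, adjusted p = 0.0679, edgeR). NFKB1 had 28.02 to 32.5 against 30.7 to 50.8 CPM (-0.25, SE 0.11, adjusted p = 0.156). TNF was lower by the same sign (-1.01, SE 0.59, adjusted p = 0.262). The adhesion genes split, with VCAM1 at 0.35 (SE 0.19, adjusted p = 0.227) and SELP at 0.75 (SE 0.42, adjusted p = 0.236) on the higher side and ICAM1 at -0.30 (SE 0.21, adjusted p = 0.353) on the lower. NFKBIA was at 0.09, with an interval from -0.35 to 0.53.

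Among the related lists, 3 of 4 other subunit genes fell in M1 libraries by edgeR, namely RELA by 0.40 (adjusted p = 0.0203), RELB by 0.54 (adjusted p = 0.0225) and NFKB2 by 0.28 (adjusted p = 0.0429) on the log2 scale. Over all genes 8.06% were lower and 5.92% higher in M1 libraries. Of the other inhibitors 2 of 11 were lower, TNIP2 at -0.79 (adjusted p = 0.0351) and BCL3 at -0.55 (adjusted p = 0.0383). Upstream, 3 of 22 were lower and 2 higher, near those shares. The kinase gene IRAK1 was at -0.78 (adjusted p = 0.00128) and TRAF3 at -0.83 (adjusted p = 0.00305), while IKBKB, the kinase that marks IkB for destruction, was at 0.69 (adjusted p = 0.00801) and the interleukin-1 receptor IL1R1 at 0.80 (adjusted p = 0.0169).

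The share of markers that passed by library name was below the 14% of all genes in every cell marker list but the small fibroblast list. The T cell gene CD3E was lower by edgeR (-1.28, adjusted p = 0.0131), 1 of 10 leukocyte markers. The fibroblast markers had 2 of 6 higher, and their summed level was 2442 to 4032 CPM in M1 and 1663 to 3955 in M8 or M9 libraries. Of 12 endothelial markers 1 was higher, TEK at 0.69 (adjusted p = 0.0250). Of 17 leukocyte adhesion genes, MCAM was lower (-0.82, adjusted p = 0.0126) and JAM2 higher (0.74, adjusted p = 0.0352). The part of cell makeup and depth in the SOCS3 difference was not tested.

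**Figure D4:**
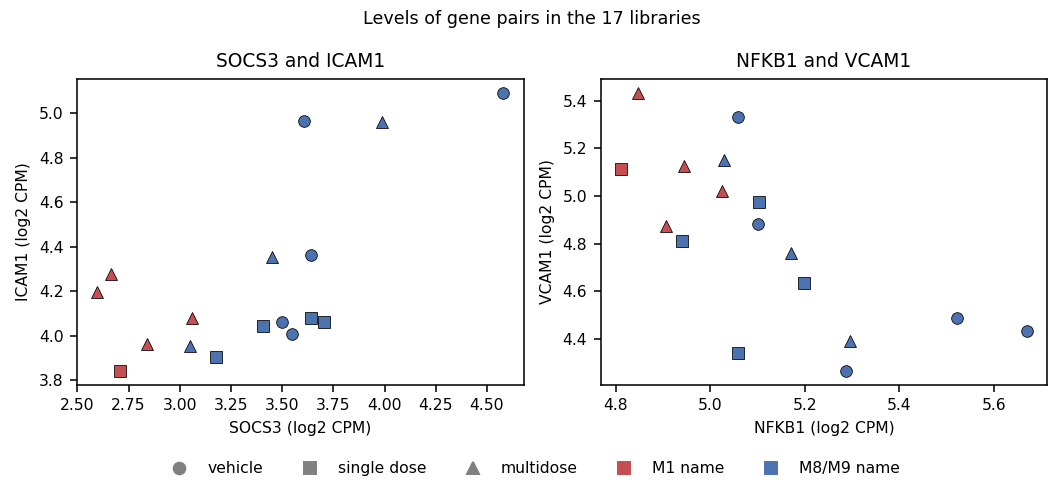
Levels of pairs of the genes, 1 point per library, with the symbol for the dosing group and the colour for the library name. In SOCS3 and ICAM1, vehicle controls 1 and 4 and multidose 5 stand apart at the top of ICAM1. The relation of NFKB1 and VCAM1 over the 12 M8 or M9 libraries was negative but did not pass (Pearson r of -0.570, permutation p = 0.0520, adjusted 0.208).

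How the genes varied with each other was read in the 12 M8 or M9 libraries, since pooling name classes would mix in their difference. The dosing groups were still pooled and their means were not removed, so shared differences between these groups enter the correlations and their permutation p. How large that part is was not tested. All 28 pairs were computed on log2 CPM. Of these, 1 pair passed by Pearson's r and none by Spearman's rho after adjustment. SOCS3 and ICAM1 had an r of 0.769 (permutation p = 0.00115, adjusted 0.0322) and a rho of 0.783 (permutation p = 0.00371, adjusted 0.104), and r was 0.637 without the 2 libraries farthest from the median of SOCS3. In ICAM1, however, 3 high libraries stand apart from the other 9. Within the 9, SOCS3 and ICAM1 had a Pearson r of 0.499 (exact permutation p = 0.150, adjusted over 2 relations 0.299) and a Spearman rho of 0.683 (exact permutation p = 0.0503, adjusted 0.101). The corresponding values of NFKBIA with ICAM1 were 0.370 (exact permutation p = 0.333, adjusted 0.333) and 0.183 (exact permutation p = 0.644, adjusted 0.644). These 2 relations, and the libraries they leave out, were chosen after the values were seen. The 3 libraries themselves had 12.1, 23.9 and 15.8 CPM of SOCS3, and the other 9 had 8.24 to 13.0, so vehicle control 1 was not high in both. Vehicle controls 1 and 4 stand apart in NFKBIA in the same way, and without them its r with TNFAIP3 was 0.250. NFKB1 and VCAM1 went in opposite directions, at an r of -0.570 (permutation p = 0.0520, adjusted 0.208) and a rho of -0.622 (permutation p = 0.0347, adjusted 0.486). Leaving out the 2 farthest gave -0.604. All 17 libraries gave an r of -0.700, which mixes in the name classes. Between these, NFKB1 was at -0.25 and VCAM1 at 0.35, so the pooled r is no further support.

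The 8 genes were also set against 6 marker lists in the same 12 libraries, again with dosing groups pooled. Of these 48 relations none passed after adjustment. The smallest adjusted permutation p, 0.108, belonged to SOCS3 and the platelet list, with an r of -0.777 (permutation p = 0.00224) and a rho of -0.720 (permutation p = 0.0107, adjusted 0.300). Over all 17 libraries that r was -0.124. NFKBIA had an r of -0.697 with the cardiomyocyte list (permutation p = 0.0109, adjusted 0.219) and of 0.688 with the leukocyte list (permutation p = 0.0137, adjusted 0.219). Without the 2 libraries farthest from the median of NFKBIA these were 0.097 and 0.158, so they rest on those libraries. NFKBIA and the endothelial list had an r of 0.546 (permutation p = 0.0658, adjusted 0.281) and a rho of 0.650 (permutation p = 0.0250, adjusted 0.300).

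The genes most like each of the 8 were taken from 11418 candidates by Spearman rho of log2 CPM over the 17 libraries. These values are descriptions, and they share library depth, name class and dosing group. For TNFAIP3 they were NOTCH4 (0.94), AGAP2 (0.94) and ACTN4 (0.91). For NFKB1 they were ADGRG6 (0.94), PURB (0.94) and TMEM185B (0.93). For SOCS3 they were MOB3A (0.93), NFKB2 (0.92) and DPF2 (0.92), where NFKB2 is itself an NF-kB subunit gene. NFKBIA was closest to B3GNT3 (0.90), WT1 (0.89) and EDNRB (0.89), and ICAM1 to BMP6 (0.88), RAD9A (0.85) and PRIMPOL (0.84). VCAM1 was closest to TRIM38 (0.89), GNB4 (0.86) and TMEM35B (0.86). TNF had CCL3L1 (0.85), a chemokine gene, CCSAP (0.84) and VRK1 (0.81), and SELP had the weakest likeness, AKAP5 (0.78), CBX5 (0.74) and DMRTA1 (0.73). In the 12 M8 or M9 libraries alone, BMP6 with ICAM1 had 0.92 and EDNRB with NFKBIA 0.92, and the rho of CBX5 with SELP was 0.63.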

How the data were processed

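The deposited table holds whole-number read counts per Ensembl gene in 17 libraries. Per the submitters' processing notes, the authors used HISAT2 2.1.0 and Subread 1.6.2 on pig build Sscrofa11.1, with Trimmomatic 0.33, FastQC 0.11.7 and SAMtools 1.7 also named. Strand setting and annotation release were not given in the sources used here, so overlapping genes on opposite strands may share counts.

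Counts were fitted in R 4.3.3 with edgeR 4.0.16 (filterByExpr, TMM scaling, robust quasi-likelihood, 1 coefficient per dosing group, all 17 libraries). The library name comparison added the name class to that model. Tests were two-sided, with Benjamini-Hochberg adjustment over all 15884 tested genes and a threshold of 0.05. Intervals are 95% from the SE and the fit's degrees of freedom. Log2 CPM used a prior count of 2. Pearson and Spearman correlations used 100000 permutations, or all of them with 9 libraries. DESeq2 1.42.0, limma-voom (limma 3.58.1), other scalings, no low-count filter, covariates, subsets and leaving out each library were alternatives, and the fit was tested on simulated data.

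The listed genes and the pathway and marker lists were chosen with earlier results of these data known. Named genes are the listed ones, up to 4 of smallest p per list (those that passed first), and the 3 genes of at least 1 CPM most like each. Replicates are individual animals per the series text. Same-numbered animals were not treated as pairs.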

Additional observations from a re-analysis of the deposited data

Results flagged for a closer look

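In 24 sets of values, 8 genes in 3 dosing groups, the highest and lowest library were compared with their nearest neighbour by Dixon's ratio on log2 CPM, and 3 stood apart. Chance flags about 5% of such sets. SOCS3 in vehicle control 4 was at 4.58 log2 CPM, against 3.64 in the next control, a ratio of 0.869 (critical value 0.710 for 5 libraries). ICAM1 in multidose 5 was at 4.96, against 4.35 in the next, and TNFAIP3 in multidose 3 was at 1.90, against 2.48 in the next, with ratios of 0.602 and 0.588 (critical value 0.568 for 7 libraries). Multidose 5 also had the lowest TMM factor of all libraries, 0.861, and the highest mitochondrial share, 23.1%. The part of these in its ICAM1 level was not tested.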

How the results depend on the processing

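Over all alternatives other than leaving out a library, 263 of the listed genes' values kept their sign and side of the threshold, 15 changed sign, 7 came to pass and 2 no longer passed. In multidose against control, SELP was -0.0093 with the name suffix, -0.46 with the M1 covariate and -0.75 in M8 or M9 libraries. In single dose against control, VCAM1 was -0.014 with the M1 covariate and -0.031 in M8 or M9 libraries. Between treated groups, NFKB1 was -0.0089 with upper-quartile scaling and -0.029 with limma-voom, NFKBIA -0.024 with limma-voom and -0.00060 in M8 or M9 libraries, and SOCS3 0.063 with the M1 covariate and 0.042 in M8 or M9 libraries. NFKBIA between name classes was -0.14 without a group term. The causes were not tested.

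Listed genes that passed between name classes numbered 1 by edgeR, 2 by DESeq2, 4 by limma-voom, 4 without a group term and 0 in multidose libraries alone, where TNF was too low to test. Over all genes 2220 passed by edgeR, 4553 by limma-voom, 3783 without a group term and 712 in multidose libraries alone. DESeq2 passed 8 genes for multidose and 10 for single dose against control, where edgeR passed 0.

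Same-numbered libraries had correlations of -0.22 to 0.41 in their deviations from the group means. Between multidose and single dose the median was 0.12, against -0.036 for different numbers. For multidose and control it was -0.068 against -0.019, and for single dose and control 0.0061 against -0.052. With 5 same-numbered pairs in each, these values do not settle whether the numbers mark pairs. With a replicate block, 1 gene passed for multidose against control, and 11 genes but 0 listed ones between name classes. There SOCS3 was -0.95 (adjusted p = 0.185) and NFKBIA -0.17. Between treated groups the block gave -0.069 for NFKB1 and 0.0038 for SELP.

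Leaving out each library gave 0 to 1 listed genes between name classes and 858 to 2745 genes in all (858 without single dose 1, 1247 without multidose 6 and 1450 without multidose 5), and 0 to 1 genes for single dose against control and between treated groups. Values that changed sign ranged from -0.28 to 0.23 for SELP with repeated doses, -0.086 to 0.42 for TNF and -0.039 to 0.26 for VCAM1 after a single dose. Between treated groups they ranged from -0.038 to 0.055 for NFKB1, -0.057 to 0.083 for NFKBIA and -0.40 to 0.10 for SELP, and between name classes from -0.019 to 0.16 for NFKBIA. TNF had 4 counts in its lowest library, and how depth and spread between animals share in its wide interval was not tested.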
